A study of Mus musculus with 9 samples.

Results

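Levels of 2031 circular RNA (circRNA) probes were compared between intestinal tumours of mice in the groups titled HFD+Abx and CTR, with 3 arrays in each group. The 2031 probes were those of the 14236 circRNA probes on the array that gave a brighter signal than every one of 15 probes named as negative, on all 6 arrays. HFD is a high-fat diet in the series' text. Abx and CTR are kept as titled, because the labels spell out neither, and the labels give no strain, age, agent, diet composition or time on diet. A further group titled HFD, also with 3 arrays, entered the model as a source of replicate spread and is shown beside single probes. The labels do not state if each array holds RNA of its own animal or a pool. The p-values therefore reflect only how much these samples vary, and some of that variation may be technical.

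CircRNAs are closed RNA loops that form when the splicing machinery joins a downstream splice site back to an upstream one. They have no free ends, so they resist exonucleases and tend to persist longer in cells than linear transcripts of the same gene. Before Cy3 labelling, linear RNA had been digested with the exonuclease RNase R. In the intestine, a high-fat diet is known to alter the gut bacteria and the bile acids that reach the epithelium. The array identifies each circRNA only by a probe number, and the files pair these numbers with no host gene, position or sequence. The label of intestinal tumours could not be checked against tissue markers either, since only 3 of 38 listed marker and pathway genes had an mRNA probe and none of the 3 (Acaa2, Cpt1a and Ppara, all of fatty acid oxidation) marks a cell type.

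All levels below are log2 signals minus the 75th percentile of the circRNA probes on the same array, and all differences are in these log2 units. MM9NEGATIVE016 was the brightest negative probe on every array and therefore set the threshold. Its level was 0.91, 0.45 and 0.43 on CTR-1, CTR-2 and CTR-3, against 0.24, 0.27 and 0.28 on HFD+Abx-1, HFD+Abx-2 and HFD+Abx-3. The threshold was thus highest on CTR-1, where 1167 of the 2031 probes had their smallest margin. It left out 677 probes that passed on all HFD+Abx arrays but not on all CTR arrays, and 42 in the opposite position. The 3 probes nearest above the threshold cleared it by 0.0010, 0.0020 and 0.0025 and the 3 nearest below missed it by -1.7e-05, -0.0014 and -0.0015, in each case on CTR-1. Of the 51 probes with an outlier spot on at least 1 of the 6 arrays, 25 would otherwise have been kept. Every one of the 2031 was well above background on all 6 arrays and unsaturated, and every one entered the test.

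The arrays were laid out unevenly. CTR-1 to CTR-3, HFD-1 to HFD-3 and HFD+Abx-1 carried 1 scan identifier in the file headers, taken here as slide 1, and HFD+Abx-2 and HFD+Abx-3 carried another (slide 2). By the position code in the headers, read here as column and row, all CTR arrays and HFD-1 lay in column 1 and the remaining arrays in column 2. A difference between CTR and HFD+Abx therefore cannot be told apart from a difference between columns without the HFD arrays. The scanner marked 12544 (HFD+Abx-3) to 13478 (HFD+Abx-1) circRNA probes as well above background.

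How far apart 2 arrays lay did not follow the groups closely. Pairs of CTR arrays had 72 to 83 of the 2031 probes at least 2-fold apart, and pairs of HFD+Abx arrays had 62 to 166. HFD+Abx-1 had 52 to 146 probes at least 2-fold from a CTR array of the same slide. HFD+Abx-2 and HFD+Abx-3 had 56 to 229 from CTR arrays of the other slide. CTR-2 was as near to some HFD+Abx arrays as to its own group. It differed by at least 2-fold from HFD+Abx-1 at 52 probes and from HFD+Abx-2 at 56, fewer than the 78 and 83 that separated it from CTR-1 and CTR-3. From HFD+Abx-3 it was 184 probes apart, and CTR-1 and CTR-3 were 72 apart. The correlation of CTR-2 over the probes was 0.973 with HFD+Abx-1, 0.940 with HFD+Abx-3 and 0.960 with CTR-1. HFD-1, the only HFD array in the CTR column, was at least 2-fold from CTR-1 at 9 probes, CTR-2 at 76 and CTR-3 at 22. From HFD-2 and HFD-3 it was 60 and 72 probes apart.

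The comparison of HFD+Abx with CTR asked which circRNAs differ between tumours of mice given both the diet and Abx and those of the CTR group. None of the 2031 circRNA probes passed an adjusted p of 0.05 in limma (smallest adjusted p = 0.37, Benjamini-Hochberg over 13555 probes), and the share called over all 13555 was 0% as well. An unadjusted p under 0.05 was reached by 258 (12.7%), against 12.5% over all probes tested. Of these, 144 (7.09%) also differed by at least 1.5-fold, against 6.22% over all probes tested. In that count 113 were lower in HFD+Abx and 31 higher. The lower ones made up 5.56% of the 2031 against a background of 4.63%, and the higher ones 1.53% against 1.59%. These shares lay near those of the whole array, but that reading changed with the source of the values. The p and fold rule was met by 5.27% of the 2031 against 1.35% of all probes with normexp background correction, and by 6.75% of 2029 against 2.22% in the deposited value table. The cause of this change was not tested. The count of 144 became 233 without CTR-2 (90 higher and 143 lower), or 11.5% against 8.28% over all probes tested. Without HFD+Abx-1 it was 242 (79 and 163), or 11.9% against 13.1%. Without CTR-1 it was 64 (3.15% against 4.06%), and without HFD+Abx-2 61 (3% against 3.69%). With position column as a block it was 12 (8 higher and 4 lower), or 0.591% against 1.79%. Over all probes tested that block gave 99 higher and 144 lower, so lower probes stayed the majority there. Slide 2 holds HFD+Abx arrays only, so slide as a block sets only HFD+Abx-1 against CTR, a comparison given below.

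The centre of the differences was close to 0. Over the 2031 probes the median difference was -0.04, against -0.03 over all probes tested, with 906 probes higher and 1125 lower in HFD+Abx. From the 5th to the 95th percentile the differences ran from -0.65 to 0.50. The tail on the lower side was longer, with 37 probes at least 2-fold lower and 5 at least 2-fold higher, and extremes of -2.56 and 1.36. Of these, 18 and 1 had groups that did not overlap. The same 2-fold counts over all probes tested were not made, so this tail has no background beside it. For 1622 probes (79.9%) the 95% interval of the difference, not adjusted for the number of probes, lay within 2-fold either way. In all, groups did not overlap at 277 probes (13.6%, against 15.3% over all probes tested). Every HFD+Abx array was below every CTR array at 211 (10.4% against 10.3%) and above at 66 (3.25% against 5.01%). Leaving out 1 array changed these counts, which need fewer arrays to separate. Without CTR-2, 376 were below (18.5% against 17.2%) and 311 above (15.3% against 13.6%), and without HFD+Abx-1, 411 (20.2% against 22.9%) and 226 (11.1% against 13.8%). Without CTR-3 they were 396 below (19.5% against 16%) and 85 above (4.19% against 9.84%). Without HFD+Abx-3 they were 421 below (20.7% against 15.7%) and 155 above (7.63% against 9.7%). The threshold described above asks more of the CTR arrays than of the HFD+Abx arrays, and its part in this split was not tested beyond other thresholds. With 1 threshold for all 6 arrays, an alternative chosen after seeing the data, the split was 150 below (9%) and 62 above (3.72%) among 1667 probes. With the threshold asked of at least 3 of the 6 arrays it was 274 below (9.13%) and 139 above (4.63%) among 3025. The background remained 10.3% below and 5.01% above in both.

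Replicates of a group spread much more than spots of one array. The median SD over a probe's 3 arrays was 0.25 in CTR and 0.26 in HFD+Abx, and 0.23 in HFD. The 22 probes printed at 10 spots each that met the same brightness rule had a median SD of 0.033 between spots of an array.

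The circRNA probe with the largest positive difference among those at an unadjusted p under 0.01 whose groups did not overlap was ASCRP4000664. It read 2.90, 3.02 and 3.39 on CTR-1 to CTR-3, 3.64, 3.69 and 3.24 on HFD-1 to HFD-3, and 3.76, 4.40 and 4.32 on HFD+Abx-1 to HFD+Abx-3. HFD+Abx-1 lay between the highest HFD array and the pair from slide 2. CTR averaged 3.10 ± 0.25 and HFD+Abx 4.16 ± 0.35 (SD, n = 3). HFD+Abx was thus 2.08-fold higher, or 1.06 on the log2 scale (SE 0.22, 95% interval 0.57 to 1.54). It did not pass (adjusted p = 0.37 in limma). ASCRP4000209 was the next. It read 3.44, 3.64 and 3.94 on the CTR arrays, 4.26, 4.38 and 3.86 on the HFD arrays, and 4.25, 4.94 and 4.83 on the HFD+Abx arrays. Its array order within each group was that of ASCRP4000664. Its difference was 0.99 (SE 0.23, 95% interval 0.49 to 1.503), again with an adjusted p of 0.37 in limma. Against the CTR mean, HFD+Abx-1 alone stood at 0.66 for ASCRP4000664 and 0.57 for ASCRP4000209. HFD+Abx-2 and HFD+Abx-3 stood at 1.29 and 1.22 for the former, and at 1.26 and 1.15 for the latter. On a linear scale the processed signals of ASCRP4000664 ran from 890 to 1156 in CTR and from 1616 to 2559 in HFD+Abx, over a local background of 9.5 to 13.

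The largest negative difference under the same rule was that of ASCRP4013451. It read 7.64, 5.78 and 6.43 on the CTR arrays, 6.79, 5.06 and 5.09 on the HFD arrays, and 5.34, 3.07 and 3.76 on the HFD+Abx arrays. HFD+Abx-1 was above HFD-2 and HFD-3 and just below CTR-2. CTR averaged 6.62 ± 0.94 and HFD+Abx 4.06 ± 1.16 (SD, n = 3), and processed signals spanned 6051 to 23807 in CTR and 1022 to 4820 in HFD+Abx. The difference was -2.56 (SE 0.66, 95% interval -4.03 to -1.10), 5.91-fold lower, and did not pass (adjusted p = 0.37 in limma). ASCRP4010816 followed. It read 3.95, 3.15 and 3.03 on the CTR arrays, 4.29, 1.89 and 3.18 on the HFD arrays, and 2.23, 1.37 and 1.24 on the HFD+Abx arrays. HFD-2 lay within the range of the HFD+Abx arrays and HFD-1 was the highest of all 9. Its difference was -1.76 (SE 0.52, 95% interval -2.93 to -0.60, adjusted p = 0.37 in limma). HFD+Abx-1 alone stood at -1.28 for ASCRP4013451 and -1.15 for ASCRP4010816 against the CTR mean. With position column as a block the differences of these 2 probes were -0.85 (SE 1.05) and -0.015 (SE 0.71). Those of ASCRP4000664 and ASCRP4000209 were 1.23 (SE 0.42) and 1.14 (SE 0.43). Among the groups only HFD lay in both columns, so that column effect rests on HFD-1 against HFD-2 and HFD-3. Within slide 1 none of the 4 passed (adjusted p = 0.9999 for each in limma).

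The p and overlap conditions of that rule were met on the lower side by 36 circRNA probes (1.77%, against 1.66% of all probes tested) and on the higher side by 12 (0.591% against 0.568%), so the lean was that of the whole array. The 8 with the largest positive differences ran from 0.71 to 1.06, and the 8 with the largest negative ones from -2.56 to -1.57. The 8 lower probes had CTR means of 3.38 to 7.25, and the 8 higher ones of 1.15 to 4.40. In the 8 lower probes, HFD+Abx-1 stood -1.28 to -0.86 from the CTR mean, HFD+Abx-2 -3.54 to -1.91 and HFD+Abx-3 -2.86 to -1.64. HFD+Abx-1 was thus the array nearest to CTR in all 8, and in 7 of the 8 higher probes. CTR-2 was the CTR array nearest to the HFD+Abx mean in 6 of the 8 lower probes and in 3 of the 8 higher ones. The HFD means of the 8 lower probes were -0.97 to -0.26 from the CTR mean, and those of the 8 higher ones -0.04 to 0.80.

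Array by array, the wider sets of 113 and 31 probes read as follows. Among the 113 lower ones the median distance from the CTR mean was -0.58 on HFD+Abx-1, -1.09 on HFD+Abx-2 and -0.91 on HFD+Abx-3. HFD+Abx-1 was the nearest of the 3 to the CTR mean in 75 of the 113 and CTR-2 the nearest of its group to the HFD+Abx mean in 96. Among the 31 higher ones the medians were 0.41, 0.97 and 0.73, with HFD+Abx-1 nearest in 26 and CTR-2 nearest in 23. Over all 2031 probes HFD+Abx-1 was nearest to the CTR mean in 932 and CTR-2 nearest to the HFD+Abx mean in 961. The part of slide and column in these positions was not tested.

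Most of the lower probes were among the brighter ones. When the probes were divided by mean signal into 4 sets of 507 or 508, the brightest set (mean levels 3.43 to 10.3) held 45 lower and 7 higher probes by the unadjusted p and fold rule, and the next set 40 and 11. The set below that held 13 and 11, and the dimmest 15 and 2. From brightest to dimmest these were 10.2%, 10.04%, 4.73% and 3.35% of the set, against 6.22% over all probes tested, whatever their signal. The replicate SD also declined with signal, from a median of 0.30 to 0.19 in CTR and from 0.30 to 0.22 in HFD+Abx. The median difference was -0.02, -0.04, 0.04 and -0.10 from the brightest set to the dimmest, which borders on the threshold. Among the 50 brightest probes of all, with mean levels of 6.77 to 10.3, 27 were higher and 23 lower in HFD+Abx. Their differences had a median of 0.01 and a range from -1.001 to 0.44. By the unadjusted p and fold rule 3 were lower and 0 higher. Over all probes tested, 4.63% were lower and 1.59% higher by that rule.

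HFD+Abx-1, the one HFD+Abx array that shared a slide with CTR, was also set against CTR on its own. Its differences from the CTR mean had a median of -0.03 and ran from -0.63 at the 5th percentile to 0.50 at the 95th. For HFD+Abx-2 the same values were -0.0016, -0.94 and 0.70, and for HFD+Abx-3 -0.12, -0.93 and 0.64. At least 2-fold below the CTR mean were 26 probes on HFD+Abx-1, 89 on HFD+Abx-2 and 86 on HFD+Abx-3. At least 2-fold above it were 39, 36 and 16. The excess of lower probes at 2-fold was thus found on both arrays of slide 2 and not on HFD+Abx-1. Without a fold limit, HFD+Abx-1 had 1109 probes below the CTR mean and 922 above, and HFD+Abx-3 had 1223 and 808. HFD+Abx-2 was nearly even, with 1021 and 1010. HFD+Abx-1 lay below every CTR array at 582 probes and above every one at 261. These counts were 684 and 518 for HFD+Abx-2, and 777 and 482 for HFD+Abx-3. The same counts over all probes tested were not made. In limma on the 7 arrays of slide 1, where the lone HFD+Abx array is assumed to vary like CTR and HFD, none of the 2031 probes passed (smallest adjusted p = 0.054), against 0.00739% of all probes tested. The unadjusted p and fold rule was met by 58 (2.86%, background 2.08%), of which 46 were higher (2.26%, background 1.61%) and 12 lower (0.591%, background 0.473%). Leaving out CTR-1 or CTR-2 changed this count, and leaving out each CTR array in turn changed its split. Without CTR-2 more of these probes were lower than higher. Without CTR-1 or CTR-3 nearly all were higher, and the share lay below the background. Some probes passed within slide 1 under other choices, all of them higher. Without HFD-2 there were 8 (0.394%, against 0.576% of all probes tested), and without HFD-3 1 (0.0492% against 0.118%). Normexp background correction gave 2 (0.0985% against 0.465%), the values of the deposited table gave 2 (0.0986% against 0.244%) and keeping outlier spots gave 1 (0.0486% against 0.0811%). In each case the share was below that over all probes.

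A set of 24 circRNA probes set HFD+Abx-1 apart from every other array. These 24 were chosen after the values were seen, as the probes at least 2-fold above all 8 other arrays on HFD+Abx-1, and are described without a test. The same count was 0 or 1 on each of the other arrays, and over all 13556 probes tested it was 104 on HFD+Abx-1 and at most 17 on any other. On HFD+Abx-1 the 24 read 2.71 to 4.07, and their gap to the next highest array was 1.02 to 1.85 with a median of 1.30. Of the 24, 0 met the unadjusted p and fold rule over all 3 HFD+Abx arrays, which the spread set by the choice made unlikely. Most of the 24 did meet that rule on slide 1, which the choice favoured. They are therefore part of the higher probes counted there, not a separate observation.

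The 24 probes also resembled one another over the other 8 arrays. The choice had capped all 8, and the brightness rule had set a floor on the CTR and HFD+Abx arrays but none on the HFD arrays. Their medians were 1.44, 1.11 and 2.18 on CTR-1 to CTR-3, and 2.13, 0.61 and 2.27 on HFD-1 to HFD-3. On HFD+Abx-1 to HFD+Abx-3 the medians were 3.67, 2.14 and 0.99. HFD-2 was the lowest of the 8 other arrays at all 24, against 291 of the 2025 probes with a value on all 9 arrays (14.4%). HFD+Abx-3 lay below the CTR mean at all 24 and HFD+Abx-2 above it at 23. The choice itself set HFD+Abx-1 at least 2-fold above HFD+Abx-2 and HFD+Abx-3. Apart from that, neither the CTR arrays, the HFD arrays nor HFD+Abx-2 and HFD+Abx-3 kept together. HFD-2, not an HFD+Abx array, was at the lower end of these 24 probes. Their spots were scattered over the array, from row 6 to 189 of 192 and from column 4 to 81 of 82.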

How the data were processed

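CircRNAs were profiled in mouse intestinal tumours on 9 one-colour arrays. Spot intensity values were read from the scanner files the authors deposited, whose headers name Agilent Feature Extraction 11.0.1.1 as the software. Its processed signal is corrected for background within an array but not scaled between arrays. The deposited value table, on a log2 scale and covering 14218 circRNA probes, served as an alternative. Its columns followed the log2 median signal (lowest r 0.998), with medians of 5.80 to 5.82. How it was centred and made is unknown here.

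Outlier spots were left out, spots of a probe were averaged, and each array's log2 signals were reduced by their 75th percentile among circRNA probes. Probes the scanner marked well above background on 3 or more of the 9 arrays, 13556 in all, were tested with lmFit and eBayes of limma 3.58.1 (R 4.3.3), 3 group means over 9 arrays, no covariate. One of them had no value in a whole group, leaving 13555. Benjamini-Hochberg adjustment covered all of these. The looser rule was an unadjusted p under 0.05 and at least 1.5-fold. Probes were named by passing the adjusted threshold first, then by the largest difference among probes with no overlap between groups and an unadjusted p under 0.01, at most 2 per direction, and 8 per direction were described without IDs. The code was tested on simulated data. The number of arrays limits precision. The probes, rules and lists were chosen with earlier results of these data known. Planned host gene lists could not be used.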

Additional observations from a re-analysis of the deposited data

How the results depend on the processing

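Of 25 alternatives to the HFD+Abx and CTR comparison, 23 gave 0 circRNA probes past the adjusted threshold in limma. Replicate number as a block gave 2, both lower (0.0985%, against 0.0148% of all probes tested). Leaving out HFD+Abx-1 gave 1, lower (0.0492% against 0.236%), with 32 called over all 13555 probes. Over arrays left out in turn the count was 0 to 1. The replicate block took ASCRP4013451 past the threshold (-2.56, adjusted p = 0.014 in limma, the lowest over its 25 alternatives, the highest being 0.999968), but same-numbered arrays deviated together at r of -0.05, 0.66 and 0.33, so the numbers may not pair the samples. The 144 probes at an unadjusted p under 0.05 and at least 1.5-fold became 58 on slide 1 alone, 51 when slide was a block, 12 when position column was, 222 (78 higher and 144 lower) when probes needed to be brighter than the negatives on at least 3 of 6 arrays, and 61 to 242 with 1 array left out. The last threshold also took the 58 of slide 1 to 102. With 1 array left out, the 58 ran from 34 to 149, the 277 probes without overlap from 277 to 687 (the latter without CTR-2) and the median difference from -0.11 to -0.0088. Over all alternatives the median ran from -0.11 to 0.0044. The 222 probes under the threshold asked of at least 3 of 6 arrays were 7.34% of 3025, against 6.22% over all probes tested. No difference of the 4 named probes changed sign under any alternative run. Their choice by groups without overlap had fixed the sign whenever an array was left out. With position column as a block, ASCRP4010816 was at -0.015 (SE 0.71). The single threshold for all 6 arrays and the alternatives on slide 1 were chosen after seeing the data. Overlap was not counted under the blocks or on slide 1 alone. Slide as a block and slide 1 alone both set only HFD+Abx-1 against CTR, so they are not separate checks. Under both, more of the probes counted by the unadjusted p and fold rule were higher than lower, the reverse of the main comparison. The difference of ASCRP4000664 was 0.66 in both, and that of ASCRP4013451 was -1.28 in both. Normexp used the median spot signal, since the files hold no mean signal column. The deposited table gave 137 in place of 144, while the count over all probes went from 843 to 300, and normexp gave 107, with 183 over all probes. Over all probes tested, quantile normalization moved the split of 216 higher and 627 lower to 308 and 452.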
